A study of Danio rerio with 12 samples.

Results

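The photoreceptor and phototransduction genes are 42 zebrafish genes chosen by symbol. They were classed here as 14 of rods, 17 of cones, 9 shared and 2 of the retinal pigment epithelium and Müller glia. The last 2 cell types regenerate visual pigment. Of the 42 genes, 41 were found among the 32520 genes of the count table and 38 had enough counts to be tested. RNA was sequenced from whole wild-type embryos of the AB strain at 3 days after fertilisation, exposed from 2 to 4 hours after fertilisation onward. The study asked which genes testosterone acts on through GPRC6A, a membrane receptor for which the design text calls EGCG a strong and calindol a weak antagonist.

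EGCG embryos received 100 µM EGCG, the tea catechin epigallocatechin gallate, together with 30 µM testosterone. Calindol embryos received 5 µM calindol, a small molecule that acts on calcium-sensing receptors, together with 30 µM testosterone. Testosterone embryos received 30 µM testosterone alone. DMSO embryos received 0.1% dimethyl sulfoxide, the solvent. Each group had 3 libraries, 1 each from clutches 1, 2 and 4. No group received EGCG or calindol without testosterone, so the effect of either compound alone and its effect on the response to testosterone cannot be told apart.

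Rods serve dim light and cones serve daylight and colour. In both, light activates an opsin, the opsin activates the G protein transducin, and transducin activates a phosphodiesterase that breaks down cyclic GMP. The fall in cyclic GMP closes ion channels in the outer segment, while opsin kinases, arrestins and calcium-binding proteins end and adjust the response. Rods and cones build this cascade largely from separate gene copies, so their transcripts can be followed separately in RNA from a whole animal. Larval zebrafish also carry photoreceptors in the pineal organ, which share part of this machinery.

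Among the 42 genes, 4 gave no test. cnga1 was not found under that symbol. gngt1, a rod transducin gamma subunit, and nr2e3, a transcription factor of the rod fate, had 0 counts in all 12 libraries, which allows up to 0.133 to 0.367 CPM at 3 counts per library, a limit that covers counting error only. opn1lw1, a red cone opsin, had 1 to 11 counts per library and did not pass the filter on low counts. Levels here are CPM, the usual count per unit of library total, taken on TMM-scaled totals, and are set side by side between libraries but not between genes, because gene lengths were not used.

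Some members have near-copies or overlapping neighbours, and their counts are less certain for that. opn1mw1 and opn1mw2, both green cone opsins, lie next to each other in the RefSeq gene table, and opn1lw2 lies next to opn1lw1. Reads shared by such copies may be split by the authors' counting. Overlap with another gene is recorded there for 13 of 40 members, among them opn1sw2, gnb1b, pde6b, pde6c, pde6ha, pde6gb, arr3b, prph2b, rpe65a and rlbp1b. The strand setting of the counting is not given in the sources used here, so reads of overlapping genes may not be separated.

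Library totals ran from 8181295 to 22510680 counts, lowest in the EGCG library of clutch 1. The 38 tested members summed to 7541, 7228 and 6051 CPM in EGCG embryos, 2431, 4570 and 5000 CPM in calindol embryos, 5046, 2526 and 6679 CPM in testosterone embryos and 7473, 7394 and 7583 CPM in DMSO embryos (clutches 1, 2 and 4, the order used throughout). The DMSO libraries were close to each other. A library in each of 2 groups thus stood well below its companions: calindol clutch 1 and testosterone clutch 2.

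The testosterone library of clutch 2 was the lowest of its group for 36 of the 38 members, against 34.1% of all tested genes. Its exceptions were crx and rlbp1b. The calindol library of clutch 1 was the lowest of its group for 34 of 38 members, against 38.5% of all tested genes, with grk7b, pde6gb, rcvrn2 and rlbp1b as exceptions. EGCG clutch 4 was the lowest for 30 of 38 members, against 34.8% of all tested genes. The median ratio of the highest to the lowest library of a group was 1.32 in EGCG, 1.86 in calindol, 2.29 in testosterone and 1.11 in DMSO embryos for the members. Over all tested genes the same ratio was 1.2, 1.26, 1.26 and 1.18 in these groups. The members therefore varied more than most genes within the 3 exposed groups and not within the DMSO group. In bulk RNA, fewer photoreceptors and less RNA per photoreceptor cannot be told apart.

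**Figure D1:**
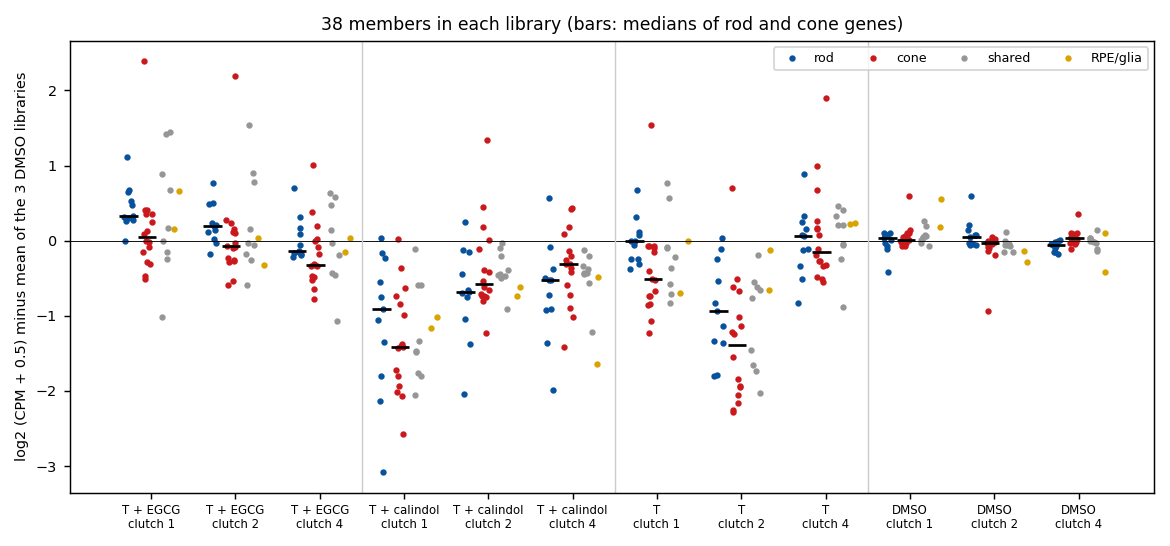
Each point is 1 of 38 members in 1 library, plotted as log2 (CPM + 0.5) minus the mean of the 3 DMSO libraries, with rod, cone, shared and pigment epithelium or glial genes in separate colours and bars at the rod and cone medians. The cone median was −1.41 in calindol clutch 1 and −1.39 in testosterone clutch 2, the 2 lowest of the 12 libraries.

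Tests were made with edgeR's quasi-likelihood method on the counts, with p-values adjusted by Benjamini and Hochberg over all 20237 tested genes, and a gene passed at an adjusted p under 0.05. Log2 fold changes are given with their standard errors (SE), and are positive where the group named first was higher. The replicates are clutches of 1 laboratory strain, so p-values measure the spread between clutches. The 6 comparisons share libraries, which makes them dependent on each other.

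Calindol embryos against DMSO embryos gave lower transcripts for members at several steps of the cascade. Falls were called in 3 of 6 transducin subunits, 1 of them gnb1b, 4 of 6 phosphodiesterase subunits and 3 of 9 shutoff genes. They were called in 1 of 3 calcium-binding proteins, 1 of 2 channel subunits and 0 of 2 peripherins. The 1 of 6 opsins that fell is near the share of all tested genes that fell. Of 38 tested members, 16 fell and 0 rose, which is 42.1% of them, where 27.4% of all tested genes passed, 15.9% with a fall. The members that fell were 8 of 11 rod genes (rho, gnat1, gnb1b, pde6a, pde6b, sagb, grk1a and cngb1a), 4 of 16 cone genes (gnat2, pde6c, pde6ha and grk7b), crx and rcvrna of 9 shared genes, and both rpe65a and rlbp1b. Without gnb1b, which is not particular to rods, 7 of 10 rod genes fell. The median log2 fold change was −0.72 over the members, −0.71 over the rod genes and −0.73 over the cone genes, against 0.01 over all tested genes. Rod and cone genes thus differed in how many passed and little in their median, a difference that was not tested. For 30 of 38 members every calindol library lay below every DMSO library, where 22.7% of all tested genes did so. For 0 of 38 every one lay above, where 20.3% of all tested genes did. Without calindol clutch 1, 10 members fell, of which 5 were rod and 2 cone genes, and gnat1, gnat2, pde6a, pde6b, pde6ha and rcvrna no longer passed. Over all tested genes 4758 passed without calindol clutch 1, against 5535 with all libraries. Without DMSO clutch 1, 10 members and 4208 of all genes passed, and without testosterone clutch 2, a library of neither group that enters the shared estimate of spread, 25 members fell, of which 8 were rod and 10 cone genes, while 5911 of all genes passed.

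EGCG embryos and DMSO embryos differed in few members in the fit of all 12 libraries. saga, gngt2a, guca1a and crx rose and rcvrna fell, so 5 of 38 (13.2%) passed, where 17% of all tested genes did, 7.69% with a rise and 9.33% with a fall, and the share of members was no higher than that of all genes. Over the members the median log2 fold change was 0.07. Every EGCG library lay above every DMSO library for 9 of 38 members, where 21.4% of all tested genes did so. Every EGCG library lay below for another 9 of 38, where 21.6% did. Both counts were near the shares over all genes. Of those above, 3 were rod and 3 cone genes, and of those below, 0 were rod and 6 cone genes. No difference between the classes was tested. With only the 6 libraries of these groups in the fit, so without the spread of the testosterone and calindol libraries, 15 members passed, 8 higher and 7 lower. The lower ones were the cone opsins opn1sw1, opn1sw2, opn1mw1 and opn1mw2, with gnat2, prph2a and rcvrna. The higher ones were crx, gngt2a, guca1a, saga, sagb, cngb1a, opn1lw2 and prph2b. The count over all tested genes was 5876 in that fit, against 3445 with all libraries. The count of members was 1 without EGCG clutch 1, EGCG clutch 2 or DMSO clutch 2. It was 3 without DMSO clutch 1 or clutch 4 and 8 without testosterone clutch 2. Over all tested genes the counts in the refits without EGCG clutch 1, EGCG clutch 2 and DMSO clutch 2 were 1836, 1647 and 1803. They were 1901 and 2283 without DMSO clutch 1 and clutch 4, and 3848 without testosterone clutch 2.

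Testosterone embryos against DMSO embryos gave 2 members that fell, opn1sw2 and grk7b, both of cones. That is 5.26% of the 38 members, where 6.32% of all tested genes passed, a like share, 2.93% with a rise and 3.39% with a fall. The median log2 fold change was −0.34 over the members, −0.58 over 16 cone genes and −0.32 over 11 rod genes, against 0.00 over all tested genes. For 13 of 38 members every testosterone library lay below every DMSO library, where 13% of all tested genes did so. Of these 13 members, 9 were cone genes. Both calls were fragile. Without testosterone clutch 2 only saga passed, and it was higher, while the median of the members was −0.09. Over all tested genes 1166 passed in that refit. Without testosterone clutch 4, 9 members fell, of which 7 were cone genes, at a median of −0.64 over the members, while 982 of all tested genes passed, against 1278 with all libraries. No member passed without DMSO clutch 1, 2 or 4, testosterone clutch 1, calindol clutch 2 or EGCG clutch 2 or 4. Without calindol clutch 1, 4 members passed. Over all tested genes 624, 744 and 705 passed without DMSO clutch 1, 2 and 4, and 1083 without testosterone clutch 1. The count over all genes was 1274 without calindol clutch 2, 1087 and 1175 without EGCG clutch 2 and 4, and 1649 without calindol clutch 1. With clutch as a block, grk7b no longer passed (adjusted p = 0.0657) and opn1sw2 was the 1 member left. With DESeq2 the 2 members that passed were grk7b, lower, and saga, higher, while 1642 of all genes passed.

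Calindol embryos against testosterone embryos showed 8 members lower and 0 higher, or 21.1% of 38, where 25.8% of all tested genes passed, 14.8% with a fall. The 8 held 5 rod genes (rho, gnb1b, saga, sagb and grk1a), 1 cone gene (pde6ha), crx and rpe65a, and without gnb1b 4 of 10 rod genes. The median log2 fold change was −0.34 over the members, −0.52 over 11 rod genes and −0.03 over 16 cone genes. For 8 of 38 members every calindol library lay below every testosterone library, where 19% of all tested genes did so. Without testosterone clutch 2, 17 members fell, of which 10 were rod and 4 cone genes, at a median of −0.56 over the members. Without testosterone clutch 4 that median was −0.11, and without calindol clutch 1 it was −0.23, where 7 members fell and 2 rose. Over all tested genes 5225 passed with all libraries and 5456 without testosterone clutch 2. The count over all genes was 4212 without testosterone clutch 4 and 4217 without calindol clutch 1.

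EGCG embryos against testosterone embryos showed 2 members higher, crx and grk7b, or 5.26% of 38, where 11.6% of all tested genes passed, 6.05% with a rise and 5.59% with a fall. The median log2 fold change was 0.48 over the members, and 35 of 38 were above 0, against a median of −0.02 over all tested genes. The members' median was 0.21 without testosterone clutch 2 and 0.89 without testosterone clutch 4. For 6 of 38 members every EGCG library lay above every testosterone library, where 15.8% of all tested genes did so. The count was 9 without testosterone clutch 4, 6 without testosterone clutch 1 or calindol clutch 1, and 0 without EGCG clutch 1 or clutch 2. Over all tested genes 2355 passed with all libraries and 804 without testosterone clutch 2. That number was 2548 without testosterone clutch 1, 3199 without calindol clutch 1 and 2145 without testosterone clutch 4. It was 737 and 584 without EGCG clutch 1 and clutch 2. The count of members was 1 without testosterone clutch 2, where rcvrna was the gene that passed and it was lower. In the refits that each left out a DMSO library, calindol clutch 2 or 4, or EGCG clutch 4 the count was also 1. Between 1803 and 2487 of all tested genes passed in those refits. With clutch as a block, grk7b no longer passed (adjusted p = 0.0618), which left crx.

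EGCG embryos against calindol embryos showed the most members past the threshold of the 6 comparisons. In all, 22 members were higher and 1, opn1mw2, was lower, or 60.5% of 38, where 43.1% of all tested genes passed, 21.1% with a rise and 22% with a fall. The higher members were 10 of 11 rod genes, 6 of 16 cone genes, 4 of 9 shared genes, and rpe65a and rlbp1b. The median log2 fold change was 0.84 over the rod genes and 0.61 over the cone genes, against −0.06 over all tested genes. For 25 of 38 members every EGCG library lay above every calindol library, where 24.9% of all tested genes did so. The count stayed between 16 and 25 when any 1 of the 12 libraries was left out, with 18 without calindol clutch 1. Over all tested genes 8719 passed with all libraries and 7704 without calindol clutch 1. In the 12 refits that number ran from 7074 without EGCG clutch 2 to 9016 without testosterone clutch 2. With clutch as a block, gngt2a (adjusted p = 0.0552) and rbp4l (adjusted p = 0.0613) no longer passed.

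**Figure D2:**
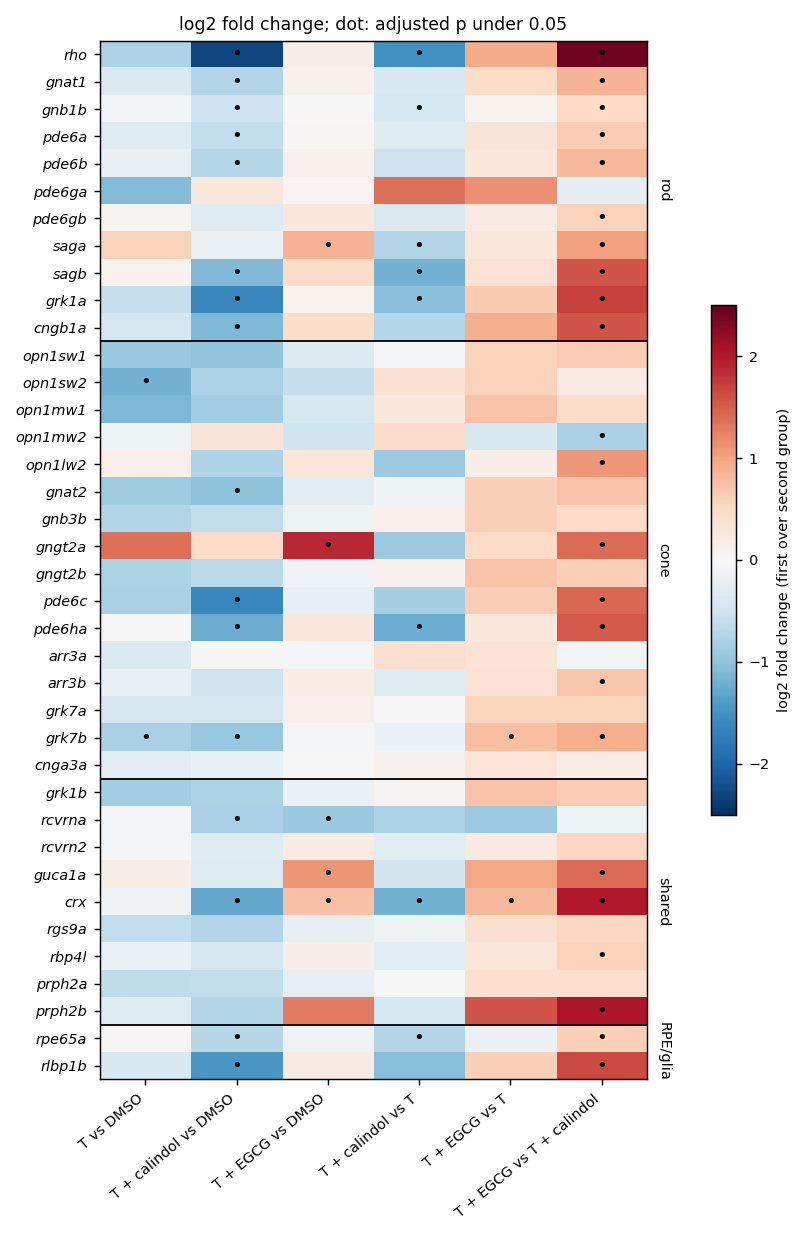
The log2 fold change of each of the 38 tested members (rows, by class) in the 6 comparisons (columns, first group over second), in blue where the first group was lower and red where it was higher, with a dot where the adjusted p was under 0.05. The calindol against DMSO column holds 16 dots, all blue, and the EGCG against calindol column holds 22 red and 1 blue.

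Among the opsins, the light-sensing proteins themselves, the rod pigment changed most. rho, rod rhodopsin, had 975, 931 and 714 CPM in EGCG embryos, 92.9, 192 and 198 CPM in calindol embryos, 605, 227 and 553 CPM in testosterone embryos and 812, 760 and 795 CPM in DMSO embryos. All 3 calindol libraries lay below all 9 others. rho was 4.90-fold lower in calindol than in DMSO embryos, which is −2.29 on the log2 scale (SE 0.31, adjusted p = 0.0001). Against testosterone embryos the log2 fold change in calindol embryos was −1.52 (SE 0.30, adjusted p = 0.0022), and EGCG embryos stood 2.44 above calindol embryos (SE 0.31, adjusted p = 2.50e-05). These 3 calls held in all 17 alternative settings tried for each. Testosterone embryos had a log2 fold change of −0.77 against DMSO embryos (SE 0.30, adjusted p = 0.151), with all 3 libraries below the DMSO libraries, but the test was not passed.

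The cone opsins behaved less uniformly. opn1sw1, the ultraviolet cone opsin, had 1674, 1693 and 1411 CPM in EGCG embryos, 529, 1207 and 1355 CPM in calindol embryos, 1126, 454 and 1619 CPM in testosterone embryos and 1975, 2020 and 2104 CPM in DMSO embryos. All 9 exposed libraries lay below the 3 DMSO libraries, and the exposed groups overlapped each other except for EGCG above calindol. Against DMSO embryos the log2 fold changes were −0.35 in EGCG (adjusted p = 0.52), −0.98 in calindol (adjusted p = 0.0507) and −0.93 in testosterone embryos (adjusted p = 0.142). None passed with all libraries in the fit. With only the EGCG and DMSO libraries in it, the fall in EGCG embryos passed (adjusted p = 0.00081).

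opn1sw2, the blue cone opsin, had 64.2, 61.4 and 51.6 CPM in EGCG embryos, 26.7, 57.8 and 69.4 CPM in calindol embryos, 37.9, 18.3 and 60.9 CPM in testosterone embryos and 92.2, 83.6 and 92.1 CPM in DMSO embryos. Again every exposed library lay below every DMSO library. The fall in testosterone embryos was −1.19 on the log2 scale (SE 0.34, adjusted p = 0.0493), and the call held in 3 of 12 refits that each left out 1 library, namely those without testosterone clutch 4, calindol clutch 1 or calindol clutch 4. The call was also lost with DESeq2 (adjusted p = 0.081) and with DESeq2 size factors (adjusted p = 0.051). Its adjusted p ran from 0.00976 to 0.139 over the alternatives. In EGCG embryos the log2 fold change was −0.60 (adjusted p = 0.228) and in calindol embryos −0.80 (adjusted p = 0.0868). The fall in EGCG embryos passed with only the EGCG and DMSO libraries in the fit (adjusted p = 2.76e-05).

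opn1mw1, a green cone opsin, had 641, 659 and 507 CPM in EGCG embryos, 197, 476 and 638 CPM in calindol embryos, 379, 163 and 555 CPM in testosterone embryos and 778, 783 and 818 CPM in DMSO embryos. Every exposed library was below every DMSO library for this gene as well, yet it passed in 0 of the 6 comparisons. Its log2 fold change in testosterone embryos was −1.12 (SE 0.37, adjusted p = 0.0966). In EGCG embryos it was −0.40 (adjusted p = 0.494), which passed with only the EGCG and DMSO libraries in the fit (adjusted p = 0.000954). opn1mw2, its neighbour and near-copy, had 10.5, 9.94 and 12 CPM in EGCG embryos, 15.6, 21.0 and 20.8 CPM in calindol embryos, 14.5, 10.5 and 17.3 CPM in testosterone embryos and 16.0, 14.9 and 14.9 CPM in DMSO embryos. It was the 1 member higher in calindol than in EGCG embryos beyond the threshold, with a log2 fold change of −0.81 for EGCG against calindol (SE 0.17, adjusted p = 0.00147) that held in all 17 alternatives.

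opn1lw2, a red cone opsin, had 331, 290 and 338 CPM in EGCG embryos, 95.8, 165 and 194 CPM in calindol embryos, 248, 88.5 and 518 CPM in testosterone embryos and 279, 236 and 265 CPM in DMSO embryos. The calindol libraries were below the EGCG and DMSO libraries, whereas the testosterone libraries spanned all the others. EGCG embryos stood 1.08 above calindol embryos on the log2 scale (SE 0.41, adjusted p = 0.0457), a call lost with DESeq2 and in 9 of 12 refits that each left out 1 library. It held without testosterone clutch 2, testosterone clutch 4 or calindol clutch 4, and its adjusted p was highest, at 0.153, without calindol clutch 1.

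**Figure D3:**
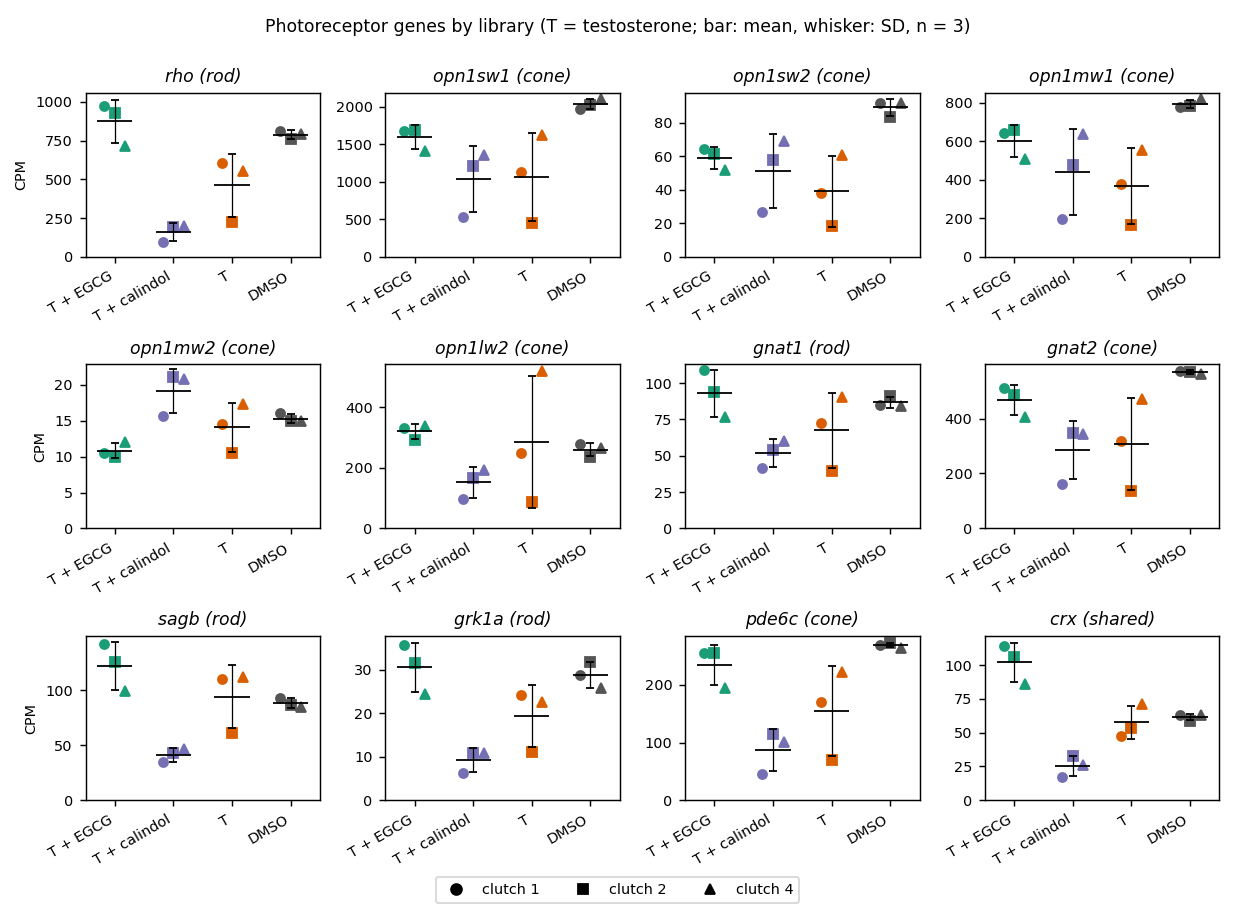
Level in CPM of 12 members in every library, by group, with the clutch as the point shape, a bar at the mean and whiskers of 1 SD (n = 3). rho averaged 161 CPM in calindol embryos and 789 CPM in DMSO embryos, and for the cone opsins opn1sw1, opn1sw2 and opn1mw1 each of the 9 exposed libraries lay below the 3 DMSO libraries.

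Transducin, the G protein that opsins activate, has separate rod and cone alpha subunits. gnat1, the rod alpha subunit, had 109, 93.8 and 76.5 CPM in EGCG embryos, 41.5, 53.9 and 60.2 CPM in calindol embryos, 72.9, 39.3 and 90.2 CPM in testosterone embryos and 84.7, 91.3 and 84.1 CPM in DMSO embryos. The calindol libraries lay below the EGCG and DMSO libraries and overlapped the testosterone libraries. The gene fell by 0.74 in calindol against DMSO embryos (SE 0.22, adjusted p = 0.0212). That call was lost without calindol clutch 1, DMSO clutch 1 or DMSO clutch 2, at an adjusted p of at most 0.0802. EGCG embryos stood 0.84 above calindol embryos (SE 0.22, adjusted p = 0.00718).

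gnat2, the cone alpha subunit, had 511, 486 and 407 CPM in EGCG embryos, 163, 347 and 344 CPM in calindol embryos, 317, 136 and 470 CPM in testosterone embryos and 574, 570 and 562 CPM in DMSO embryos. Its libraries were below the DMSO libraries in all 3 exposed groups. It fell in calindol embryos by 1.00 on the log2 scale (SE 0.33, adjusted p = 0.034). Leaving out calindol clutch 1 or any 1 of the 3 DMSO libraries ended the call, with an adjusted p of at most 0.113. In testosterone embryos the log2 fold change was −0.89 (SE 0.33, adjusted p = 0.133), and in EGCG embryos it was −0.28 (SE 0.32, adjusted p = 0.587). The fall in EGCG embryos passed with only the EGCG and DMSO libraries in the fit (adjusted p = 0.005).

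gnb1b, a transducin beta subunit of rods, is also widely expressed in other tissues. Its levels were 442, 450 and 426 CPM in EGCG embryos, 303, 324 and 306 CPM in calindol embryos, 440, 409 and 409 CPM in testosterone embryos and 420, 466 and 440 CPM in DMSO embryos. Calindol embryos lay below all others. The log2 fold change was −0.51 against DMSO embryos (SE 0.06, adjusted p = 5.73e-05) and −0.43 against testosterone embryos (SE 0.06, adjusted p = 0.000263), and both held in all 17 alternatives. In whole embryos this gene cannot be assigned to rods.

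gngt2a, a cone transducin gamma subunit, had 37.0, 32.2 and 13.9 CPM in EGCG embryos, 4.12, 17.6 and 9.09 CPM in calindol embryos, 20.4, 11.1 and 26.2 CPM in testosterone embryos and 10.3, 3.24 and 8.62 CPM in DMSO embryos. Both the EGCG and the testosterone libraries lay above every DMSO library. The rise in EGCG embryos was 1.89 on the log2 scale (SE 0.50, adjusted p = 0.0191), and it was lost without EGCG clutch 1, EGCG clutch 2 or DMSO clutch 2 (adjusted p at most 0.0844). In testosterone embryos the log2 fold change was 1.38 (SE 0.49, adjusted p = 0.121). EGCG embryos stood 1.40 above calindol embryos although 1 library overlapped (SE 0.49, adjusted p = 0.0303), and this call ended without EGCG clutch 1 or 2 or calindol clutch 1 or 4, with DESeq2 and with clutch as a block, at an adjusted p of at most 0.117. The cone beta and gamma subunits gnb3b and gngt2b passed in 0 of the 6 comparisons. Their log2 fold changes in testosterone embryos were −0.73 (adjusted p = 0.208) and −0.79 (adjusted p = 0.174).

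The phosphodiesterase, which breaks down cyclic GMP, had its largest change against DMSO embryos in the cone catalytic subunit. pde6c had 255, 255 and 195 CPM in EGCG embryos, 44.8, 115 and 101 CPM in calindol embryos, 170, 69.7 and 223 CPM in testosterone embryos and 270, 273 and 265 CPM in DMSO embryos. Calindol embryos were below EGCG and DMSO embryos in every library. The gene was 3.11-fold lower in calindol than in DMSO embryos (log2 −1.64, SE 0.34, adjusted p = 0.00237) and stood 1.44 higher on the log2 scale in EGCG than in calindol embryos (SE 0.34, adjusted p = 0.0034). Both calls held in all 17 alternatives.

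pde6ha, the cone inhibitory gamma subunit, had 29.6, 26.2 and 25.3 CPM in EGCG embryos, 4.88, 12.4 and 10.7 CPM in calindol embryos, 20.7, 9.81 and 35.5 CPM in testosterone embryos and 23.8, 19.3 and 23.6 CPM in DMSO embryos. Calindol libraries overlapped the testosterone libraries and lay below the EGCG and DMSO libraries. The fall in calindol embryos was −1.25 against DMSO (SE 0.36, adjusted p = 0.0181) and also −1.25 against testosterone embryos (SE 0.36, adjusted p = 0.0198). Against DMSO it was lost without calindol clutch 1, DMSO clutch 1 or DMSO clutch 4 (adjusted p at most 0.065). Against testosterone it was lost without testosterone clutch 4 or calindol clutch 1 and with only those 2 groups in the fit (adjusted p at most 0.164).

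The rod phosphodiesterase subunits moved less. pde6a, a rod catalytic subunit, had 21.3, 17.3 and 15.4 CPM in EGCG embryos, 10.3, 11.0 and 13.4 CPM in calindol embryos, 17.6, 8.94 and 16.1 CPM in testosterone embryos and 18.6, 16.9 and 17.4 CPM in DMSO embryos. pde6b, the other rod catalytic subunit, had 31.5, 30.1 and 23.7 CPM in EGCG embryos, 13.8, 16.1 and 18.6 CPM in calindol embryos, 25.3, 14.6 and 29.4 CPM in testosterone embryos and 24.4, 30.4 and 24.5 CPM in DMSO embryos. Both had all calindol libraries below the EGCG and DMSO libraries. In calindol against DMSO embryos pde6a fell by 0.61 (SE 0.20, adjusted p = 0.0349) and pde6b fell by 0.71 (SE 0.21, adjusted p = 0.018). The pde6a call was lost without any 1 of the DMSO libraries, calindol clutch 1 or 2, or EGCG clutch 2, and the pde6b call without DMSO clutch 2 or calindol clutch 1, with adjusted p at most 0.105 and 0.0809. EGCG embryos stood above calindol embryos by 0.63 for pde6a (SE 0.21, adjusted p = 0.0223) and by 0.81 for pde6b (SE 0.21, adjusted p = 0.00579). The pde6a difference was lost without EGCG clutch 1 or 2 or calindol clutch 1 or 2, at an adjusted p of at most 0.106.

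pde6gb, a rod inhibitory gamma subunit, had 64.2, 53.4 and 48.7 CPM in EGCG embryos, 40.9, 42.2 and 27.6 CPM in calindol embryos, 49.9, 38.8 and 54.8 CPM in testosterone embryos and 49.3, 47.5 and 41.4 CPM in DMSO embryos. Its EGCG libraries lay above all calindol libraries, by 0.58 on the log2 scale (SE 0.16, adjusted p = 0.00923), a call lost only without EGCG clutch 1 (adjusted p = 0.0558). Against DMSO embryos it did not pass in any group. pde6ga, the paralogous rod gene, ranged from 0.163 to 3.08 CPM over the 12 libraries and passed in 0 comparisons.

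Opsin kinases and arrestins shut off the active pigment. grk1a, the rod opsin kinase, had 35.7, 31.5 and 24.5 CPM in EGCG embryos, 6.13, 10.8 and 10.9 CPM in calindol embryos, 24.2, 11.1 and 22.6 CPM in testosterone embryos and 28.7, 31.7 and 25.8 CPM in DMSO embryos. Every calindol library lay below every other library. The log2 fold change in calindol embryos was −1.63 against DMSO (SE 0.26, adjusted p = 0.000336) and −1.05 against testosterone embryos (SE 0.26, adjusted p = 0.0087), and EGCG embryos stood 1.71 above calindol embryos (SE 0.26, adjusted p = 0.000121). All 3 calls held in the 17 alternatives.

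The paired arrestin genes of rods differed in their relation to DMSO embryos. saga had 93.8, 73.8 and 70.4 CPM in EGCG embryos, 36.9, 39.0 and 40.7 CPM in calindol embryos, 69.4, 44.2 and 80.3 CPM in testosterone embryos and 46.5, 42.1 and 41.3 CPM in DMSO embryos. sagb had 142, 126 and 99.1 CPM in EGCG embryos, 34.4, 42.7 and 46.3 CPM in calindol embryos, 110, 60.9 and 112 CPM in testosterone embryos and 93.4, 86.8 and 85.2 CPM in DMSO embryos. For both genes the calindol libraries were the lowest 3 of the 12. saga rose in EGCG embryos by 0.87 against DMSO (SE 0.17, adjusted p = 0.0034), whereas its log2 fold change in calindol embryos was −0.16 (SE 0.17, adjusted p = 0.537). sagb fell in calindol embryos by 1.10 against DMSO (SE 0.19, adjusted p = 0.000618), and its log2 fold change in EGCG embryos was 0.46 (SE 0.19, adjusted p = 0.0993).

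Against testosterone embryos both arrestins fell in calindol embryos, saga by 0.73 (SE 0.17, adjusted p = 0.00477) and sagb by 1.19 (SE 0.19, adjusted p = 0.000501). EGCG embryos stood above calindol embryos by 1.02 for saga (SE 0.17, adjusted p = 0.000205) and 1.57 for sagb (SE 0.19, adjusted p = 1.76e-05). All of these calls held in the 17 alternatives. In testosterone against DMSO embryos saga had a log2 fold change of 0.58 at an adjusted p of 0.0507, just short of the threshold. It passed in 5 of 17 alternatives, among them the refit without testosterone clutch 2, and the adjusted p lay between 0.000979 and 0.21.

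Cones use arrestins and kinases of their own. arr3b, a cone arrestin, had 204, 193 and 151 CPM in EGCG embryos, 80, 122 and 138 CPM in calindol embryos, 152, 78.6 and 191 CPM in testosterone embryos and 166, 159 and 155 CPM in DMSO embryos. EGCG embryos lay above calindol embryos by 0.69 (SE 0.25, adjusted p = 0.0352), a call lost without EGCG clutch 1 or 2, calindol clutch 1 or 2, or with DESeq2 in place of edgeR (adjusted p at most 0.143). grk7b, a cone opsin kinase at low level, had 4.74, 4.46 and 4.79 CPM in EGCG embryos, 2.44, 2.68 and 2.33 CPM in calindol embryos, 3.19, 1.79 and 3.28 CPM in testosterone embryos and 4.55, 4.67 and 5.19 CPM in DMSO embryos. EGCG and DMSO libraries overlapped, and every calindol and testosterone library lay below both.

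grk7b fell in calindol against DMSO embryos by 0.95 (SE 0.23, adjusted p = 0.00633) in all 17 alternatives, and in testosterone against DMSO embryos by 0.81 (SE 0.23, adjusted p = 0.0488). EGCG embryos stood above testosterone embryos by 0.76 (SE 0.23, adjusted p = 0.0474) and above calindol embryos by 0.90 (SE 0.23, adjusted p = 0.00604). The call for testosterone against DMSO held only without testosterone clutch 4 or calindol clutch 1 among the 12 refits, and the call for EGCG against testosterone only without testosterone clutch 1, testosterone clutch 4 or calindol clutch 1. Both were also lost without the filter on low counts and with only the 2 groups in the fit, and their adjusted p reached 0.166 and 0.178. arr3a, grk7a, grk1b and rgs9a, which also act in shutoff, passed in 0 of the 6 comparisons, with log2 fold changes of −0.86 (grk1b, testosterone against DMSO) to 0.71 (grk1b, EGCG against testosterone).

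Calcium-binding proteins and the channel set the gain of the response. guca1a, an activator of guanylate cyclase, had 7.59, 5.16 and 4.02 CPM in EGCG embryos, 1.52, 2.33 and 2.27 CPM in calindol embryos, 3.98, 1.57 and 3.01 CPM in testosterone embryos and 2.54, 2.23 and 2.86 CPM in DMSO embryos. The EGCG libraries were the highest 3 of the 12. The gene rose by 1.11 in EGCG against DMSO embryos (SE 0.32, adjusted p = 0.0308), a call lost without EGCG clutch 1 or 2 or any 1 of the DMSO libraries (adjusted p at most 0.135). EGCG embryos stood 1.42 above calindol embryos (SE 0.33, adjusted p = 0.00299).

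rcvrna, a recoverin that restrains opsin kinase when calcium is high, had 4.62, 6.37 and 4.46 CPM in EGCG embryos, 3.25, 6.98 and 6.51 CPM in calindol embryos, 9.24, 6.23 and 13.3 CPM in testosterone embryos and 10.2, 9.60 and 9.81 CPM in DMSO embryos. All EGCG and calindol libraries lay below the DMSO libraries, and it was the 1 member that fell in both groups against DMSO. The log2 fold change was −0.93 in EGCG (SE 0.29, adjusted p = 0.0397) and −0.82 in calindol embryos (SE 0.28, adjusted p = 0.0415). Leaving out any 1 of the EGCG or DMSO libraries ended the EGCG call (adjusted p at most 0.123). The calindol call ended without any 1 of the DMSO libraries, calindol clutch 1 or 4, testosterone clutch 1, or EGCG clutch 1 or 2 (adjusted p at most 0.145). The other recoverin, rcvrn2, ranged from 0.217 to 1.30 CPM and passed in 0 comparisons.

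cngb1a, the beta subunit of the rod channel, had 30.0, 29.1 and 25.7 CPM in EGCG embryos, 5.53, 12 and 10.7 CPM in calindol embryos, 16.5, 7.70 and 21.8 CPM in testosterone embryos and 21.7, 20.1 and 19.9 CPM in DMSO embryos. EGCG libraries were the highest 3 and calindol libraries lay below EGCG and DMSO libraries. The log2 fold change in calindol against DMSO embryos was −1.13 (SE 0.30, adjusted p = 0.0105) and EGCG embryos stood 1.58 above calindol embryos (SE 0.30, adjusted p = 0.000642), both in all 17 alternatives. cnga3a, the alpha subunit of the cone channel, ranged from 23.0 to 42.3 CPM and passed in 0 comparisons.

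crx, a transcription factor that many photoreceptor genes depend on, was the only member past the threshold in 5 of the 6 comparisons. It had 114, 106 and 86.0 CPM in EGCG embryos, 17.2, 32.3 and 26.2 CPM in calindol embryos, 47.5, 53.6 and 71.3 CPM in testosterone embryos and 62.9, 58.9 and 62.7 CPM in DMSO embryos. The EGCG libraries were the highest 3 and the calindol libraries the lowest 3 of the 12, while testosterone and DMSO libraries overlapped. Against DMSO embryos the log2 fold change was 0.73 in EGCG (SE 0.18, adjusted p = 0.0137), −1.28 in calindol (SE 0.19, adjusted p = 0.000173) and −0.09 in testosterone embryos (SE 0.18, adjusted p = 0.837). Against testosterone embryos it was 0.82 in EGCG (SE 0.18, adjusted p = 0.0116) and −1.19 in calindol embryos (SE 0.19, adjusted p = 0.000435). EGCG embryos stood 2.01 above calindol embryos (SE 0.19, adjusted p = 1.76e-06), and the calindol calls held in all 17 alternatives. The EGCG calls were lost without EGCG clutch 1 or 2, and also without DMSO clutch 2 in the first and testosterone clutch 2 in the second, at adjusted p of at most 0.0649 and 0.0621. Unlike most members, crx was not at its lowest in testosterone clutch 2.

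Peripherins shape the rims of outer segment discs. prph2b had 43.9, 47.0 and 24.8 CPM in EGCG embryos, 3.42, 11.4 and 13.7 CPM in calindol embryos, 27.2, 4.39 and 8.34 CPM in testosterone embryos and 15, 17.1 and 15.4 CPM in DMSO embryos. EGCG libraries lay above all calindol and DMSO libraries, and the 3 testosterone libraries were spread over a wide range. EGCG embryos stood 2.02 above calindol embryos (SE 0.52, adjusted p = 0.0057) in all 17 alternatives, while the log2 fold change of 1.28 against DMSO embryos did not pass (SE 0.50, adjusted p = 0.0889). prph2a ranged from 46.8 to 152 CPM and passed in 0 comparisons.

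The retinoid genes supply the chromophore. rpe65a, the isomerase that regenerates it, had 70.3, 50.5 and 56.8 CPM in EGCG embryos, 31.1, 41.3 and 45.2 CPM in calindol embryos, 63.3, 58.1 and 73.7 CPM in testosterone embryos and 72.1, 51.8 and 68.0 CPM in DMSO embryos. Calindol libraries were the lowest 3 of the 12. The log2 fold change in calindol embryos was −0.71 against DMSO (SE 0.16, adjusted p = 0.0035) and −0.73 against testosterone embryos (SE 0.16, adjusted p = 0.00336), in all 17 alternatives. EGCG embryos stood 0.59 above calindol embryos (SE 0.16, adjusted p = 0.00773), which was lost without EGCG clutch 1 (adjusted p = 0.0536).

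rlbp1b, which codes for a retinaldehyde-binding protein, had 5.93, 3.63 and 3.63 CPM in EGCG embryos, 1.30, 1.92 and 0.799 CPM in calindol embryos, 1.99, 2.06 and 4.28 CPM in testosterone embryos and 5.45, 3.18 and 2.52 CPM in DMSO embryos. Calindol libraries were again the lowest 3. It fell in calindol against DMSO embryos by 1.45 (SE 0.40, adjusted p = 0.0152), which was lost without calindol clutch 4 or DMSO clutch 1 (adjusted p at most 0.0903), and EGCG embryos stood 1.66 above calindol embryos (SE 0.41, adjusted p = 0.00452). rbp4l, a retinol-binding protein homologue, had 16.9, 16.8 and 16.6 CPM in EGCG embryos, 9.82, 13.0 and 11.0 CPM in calindol embryos, 12.8, 8.67 and 19.0 CPM in testosterone embryos and 18, 13.5 and 13.9 CPM in DMSO embryos. Its difference of 0.58 between EGCG and calindol embryos (SE 0.22, adjusted p = 0.0467) held in 4 of 12 refits, those without DMSO clutch 1, testosterone clutch 2 or 4, or calindol clutch 2, and the adjusted p reached 0.145. rbp4l overlaps pde6b in the RefSeq table.

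Rod and cone genes were set against each other within each library, which removes whatever scales both together. The 6 pairs of matching role were picked with the values known, and with 3 libraries against 3 an exact permutation test cannot give a two-sided p below 0.1, so these ratios are described and not tested. The log2 ratio of rho to opn1sw1 counts was −0.87 ± 0.10 in EGCG, −2.65 ± 0.13 in calindol, −1.15 ± 0.35 in testosterone and −1.37 ± 0.07 in DMSO embryos (mean ± SD, n = 3). In calindol embryos the 3 values were −2.51, −2.66 and −2.77, below all 9 others. In calindol clutch 1, where both genes were lowest of their group, the ratio was close to that of the other calindol clutches, and in testosterone clutch 2 it lay between the −0.90 of clutch 1 and the −1.55 of clutch 4.

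Calindol embryos were also lowest for the opsin kinases, with grk1a to grk7a at −2.21 ± 0.17 in EGCG, −3.30 ± 0.26 in calindol, −2.28 ± 0.38 in testosterone and −2.16 ± 0.16 in DMSO embryos. For the arrestins, sagb to arr3b was −0.58 ± 0.05 in EGCG, −1.44 ± 0.19 in calindol, −0.54 ± 0.21 in testosterone and −0.86 ± 0.02 in DMSO embryos. The channel subunits cngb1a to cnga3a gave −0.48 ± 0.05 in EGCG, −1.90 ± 0.18 in calindol, −1.15 ± 0.49 in testosterone and −0.92 ± 0.13 in DMSO embryos. In these 3 pairs the calindol mean was the lowest of the 4 groups. The calindol libraries did not overlap the others for the kinases and arrestins, while for the channel testosterone clutch 2, at −1.71, fell among them.

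The other pairs did not have their lowest mean in calindol embryos. gnat1 to gnat2 was −2.34 ± 0.09 in EGCG, −2.39 ± 0.37 in calindol, −2.10 ± 0.29 in testosterone and −2.72 ± 0.06 in DMSO embryos. pde6b to pde6c was −3.05 ± 0.04 in EGCG, −2.32 ± 0.58 in calindol, −2.64 ± 0.35 in testosterone and −3.36 ± 0.17 in DMSO embryos, so for this pair the calindol mean was the highest. The pde6 ratio was higher in every exposed library than in every DMSO library, and the transducin ratio in every one but calindol clutch 2. Rod genes summed without gnb1b over summed cone genes gave −1.83 ± 0.08 in EGCG, −2.95 ± 0.34 in calindol, −1.91 ± 0.35 in testosterone and −2.25 ± 0.05 in DMSO embryos. rho was the largest gene of that rod sum, at 812, 760 and 795 CPM in DMSO embryos. The tested rod genes, gnb1b included, summed to 1600, 1595 and 1576 CPM there. In calindol embryos rho had 92.9, 192 and 198 CPM of 587, 745 and 736 CPM. The summed ratio therefore leans on rho, and it was not computed without rho.

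**Figure D4:**
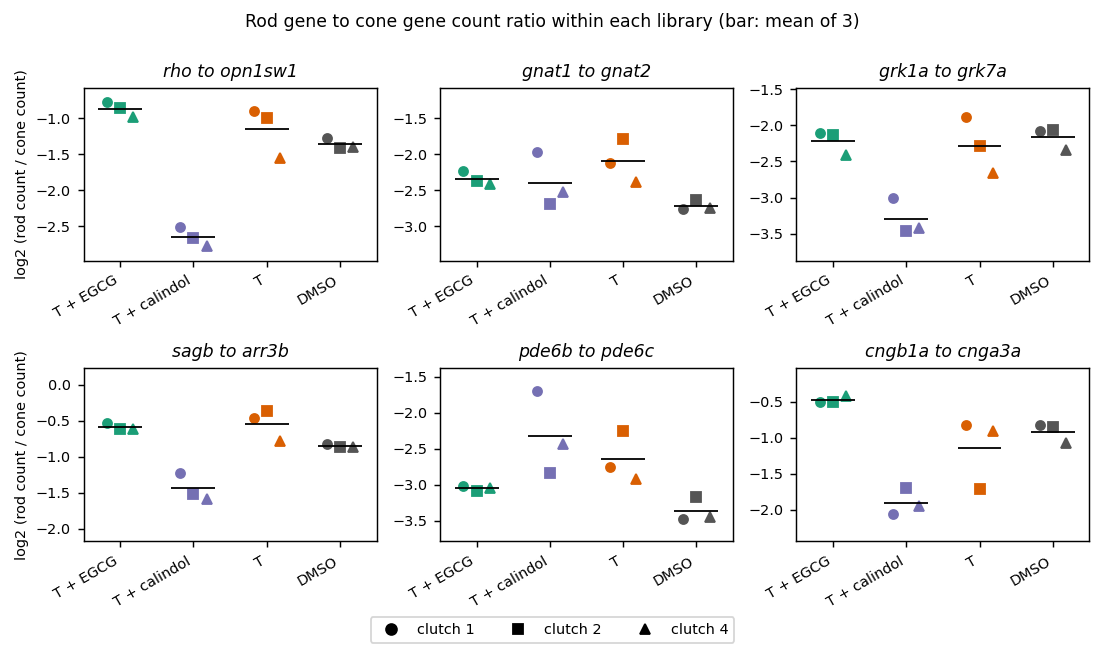
Log2 ratio of a rod gene's count to a cone gene's count in each library, by group, for 6 pairs of matching role, with the clutch as the point shape and a bar at the mean of 3. The calindol libraries are the lowest for rho to opn1sw1, grk1a to grk7a and sagb to arr3b, and not for gnat1 to gnat2 or pde6b to pde6c.

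Other genes of the cascade came from a list of 31 further phototransduction genes, of which 20 were tested. Against DMSO embryos 1 rose and 0 fell in EGCG, 0 rose and 2 fell in calindol, and 0 passed in testosterone embryos, which are no larger shares than the 7.69% of all tested genes that rose in EGCG and the 15.9% that fell in calindol embryos. slc24a2, which codes for a sodium, calcium and potassium exchanger of cones in mammals, had 92.6, 93.1 and 64.5 CPM in EGCG embryos, 9.82, 19.6 and 20.4 CPM in calindol embryos, 45.5, 19.7 and 57.7 CPM in testosterone embryos and 40.2, 41.3 and 44.7 CPM in DMSO embryos. It rose in EGCG by 0.98 (SE 0.30, adjusted p = 0.0356) and fell in calindol embryos by 1.34 (SE 0.31, adjusted p = 0.00519). cnga1b, a rod channel alpha subunit, had 9.48, 9.49 and 7.82 CPM in EGCG embryos, 4.45, 4.00 and 3.99 CPM in calindol embryos, 7.65, 5.37 and 8.78 CPM in testosterone embryos and 5.87, 6.58 and 7.23 CPM in DMSO embryos, and it fell in calindol against DMSO embryos by 0.66 (SE 0.19, adjusted p = 0.0182). cnga1a, also tested in this list, did not pass in that comparison. Between EGCG and calindol embryos 8 of 20 were higher and 0 lower, where 21.1% of all tested genes were higher. In this list too testosterone clutch 2 was the lowest of its group, for 19 of 20 genes.

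Photoreceptor transcription factors other than crx and nr2e3 made a list of 22, with 19 tested. In EGCG against DMSO embryos 7 were higher and 0 lower, in calindol against DMSO embryos 1 was higher and 7 lower, and 0 passed in testosterone embryos, where 7.69% of all tested genes rose in EGCG and 15.9% fell in calindol embryos. otx5, a relative of crx in retina and pineal, had 86.9, 82.1 and 70.1 CPM in EGCG embryos, 16.2, 22.8 and 21.4 CPM in calindol embryos, 46.8, 39.1 and 47.1 CPM in testosterone embryos and 49.9, 46.0 and 49.8 CPM in DMSO embryos. Like crx it was highest in the 3 EGCG and lowest in the 3 calindol libraries, with log2 fold changes against DMSO embryos of 0.71 in EGCG (SE 0.12, adjusted p = 0.00135) and −1.27 in calindol embryos (SE 0.12, adjusted p = 8.80e-06). samd7 rose by 1.09 (SE 0.14, adjusted p = 0.00018) and rx1 by 1.19 in EGCG against DMSO embryos (SE 0.17, adjusted p = 0.000535). otx2b fell by 0.90 in calindol against DMSO embryos (SE 0.09, adjusted p = 1.28e-05). Between EGCG and calindol embryos 15 of 19 were higher and 0 lower, where 21.1% of all tested genes were higher and 22% lower.

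Genes of the outer segment and the ribbon synapse made a list of 36, with 27 tested. Against DMSO embryos 1 rose and 1 fell in EGCG, 7 fell in calindol, where 15.9% of all tested genes did, and 0 passed in testosterone embryos. rom1a, a disc rim protein related to peripherin, had 50.8, 50.1 and 39.0 CPM in EGCG embryos, 12.1, 15.6 and 15.7 CPM in calindol embryos, 38.9, 19.0 and 40.4 CPM in testosterone embryos and 41.5, 37.4 and 37.4 CPM in DMSO embryos. Every calindol library was below every other library, with a log2 fold change against DMSO embryos of −1.42 (SE 0.22, adjusted p = 0.00025). ctbp2a, whose gene yields the ribbon protein, fell by 0.79 (SE 0.11, adjusted p = 9.04e-05) and rose in EGCG embryos by 0.38 (SE 0.10, adjusted p = 0.024).

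Markers of other eye cells also fell in calindol embryos, where 15.9% of all tested genes did. In EGCG embryos 7.69% of all tested genes rose and 9.33% fell. Of 25 tested lens genes, summed at 6132 to 7837 CPM in EGCG, 3407 to 4009 CPM in calindol, 4577 to 5304 CPM in testosterone and 4911 to 6226 CPM in DMSO embryos, 8 rose in EGCG and 10 fell in calindol against DMSO embryos, with cryabb at 0 throughout. Of 28 tested genes of other retinal neurons, summed at 1780 to 1924 CPM in EGCG, 1186 to 1467 CPM in calindol, 1556 to 1708 CPM in testosterone and 1708 to 1734 CPM in DMSO embryos, 1 fell in EGCG and 10 fell in calindol against DMSO embryos, with cabp5b and onecut1 at 0. In calindol embryos the median log2 fold change was −0.36 for the lens genes and −0.37 for the other neurons, against 0.01 over all tested genes. Their part in the member results was not tested. Many of these genes are also expressed outside the eye in whole embryos.

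Retinal progenitor genes (15 tested) were summed at 958 to 1004 CPM in EGCG, 823 to 906 CPM in calindol, 944 to 985 CPM in testosterone and 880 to 896 CPM in DMSO embryos. Of these 3 rose in EGCG, 2 rose and 5 fell in calindol, and 1 rose in testosterone embryos against DMSO, with her9 at 0. Of all tested genes 7.69% rose and 9.33% fell in EGCG, and 11.5% rose and 15.9% fell in calindol embryos. In testosterone embryos 2.93% rose. Müller glia genes (10 tested) were summed at 1908 to 2081 CPM in EGCG, 1533 to 1753 CPM in calindol, 1855 to 2006 CPM in testosterone and 1960 to 2054 CPM in DMSO embryos, and 1 fell in EGCG and 3 fell in calindol embryos. Among them slc1a2b, a glutamate transporter, had 151, 223 and 186 CPM in calindol embryos and 606, 578 and 648 CPM in DMSO embryos (log2 −1.71, SE 0.14, adjusted p = 4.04e-06). The median log2 fold change over the 10 Müller glia genes was −0.11 in calindol embryos, against 0.01 over all tested genes. The lower Müller glia sum in calindol embryos therefore leans on slc1a2b. The low member levels of calindol clutch 1 and testosterone clutch 2 were matched in some lists and not in others. Calindol clutch 1 was lowest of its group for 8 of 10 Müller glia genes and 17 of 28 genes of other neurons. It was lowest for 8 of 15 progenitor and 6 of 25 lens genes. Testosterone clutch 2 was lowest of its group for 18 of 25 lens and 7 of 10 Müller glia genes. It was lowest for 14 of 28 genes of other neurons and 5 of 15 progenitor genes. Over all tested genes, 38.5% and 34.1% were lowest in these libraries.

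Pineal and visual cycle genes passed in both directions. Of 9 tested pineal genes, summed at 41.1 to 55.1 CPM over the 12 libraries, 2 rose in EGCG, 1 rose and 1 fell in calindol and 1 rose in testosterone embryos against DMSO. parietopsin, an opsin named for the parietal eye of lizards, rose in all 3 exposed groups here, by 0.64 in EGCG (SE 0.13, adjusted p = 0.0059), 0.95 in calindol (SE 0.13, adjusted p = 0.000114) and 0.62 in testosterone embryos (SE 0.13, adjusted p = 0.0118). exorh, the rhodopsin of the pineal, had 4.77, 4.45 and 5.84 CPM in calindol embryos and 7.46, 8.27 and 8.66 CPM in DMSO embryos, and fell there by 0.70 (SE 0.17, adjusted p = 0.00584). asmt2 and valopb of this list were at 0. Of 23 tested visual cycle genes, summed at 386 to 429 CPM in EGCG, 321 to 360 CPM in calindol, 309 to 413 CPM in testosterone and 377 to 395 CPM in DMSO embryos, 1 rose and 2 fell in EGCG, 3 rose and 4 fell in calindol, and 1 rose and 2 fell in testosterone embryos against DMSO. The calindol counts of both lists compare with 11.5% of all tested genes that rose and 15.9% that fell. These shares were 7.69% and 9.33% in EGCG embryos, and 2.93% and 3.39% in testosterone embryos. abca4a and abca4b, which code for outer segment retinoid transporters, fell in calindol embryos by 0.97 (SE 0.18, adjusted p = 0.00108) and 0.89 (SE 0.17, adjusted p = 0.00115). rdh12, a retinol dehydrogenase, rose in all 3 exposed groups, by 0.68 in EGCG (adjusted p = 0.0025), 0.69 in calindol (adjusted p = 0.000679) and 0.59 in testosterone embryos (adjusted p = 0.00909).

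**Figure D5:**
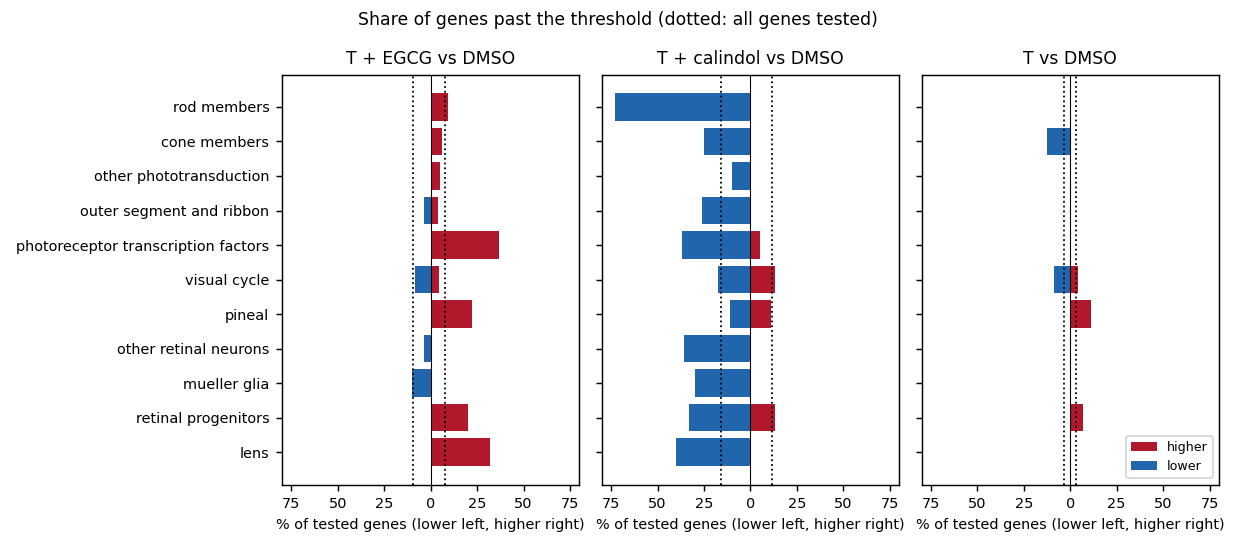
Share of tested genes of each list that were lower (left, blue) or higher (right, red) than in DMSO embryos at an adjusted p under 0.05, for EGCG, calindol and testosterone embryos, with dotted lines at the shares over all 20237 tested genes. In calindol embryos 8 of 11 rod members and 10 of 25 lens genes were lower, against 15.9% of all tested genes, and in EGCG embryos 7 of 19 photoreceptor transcription factors were higher, against 7.69%.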

How the data were processed

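Gene counts per library were deposited by the authors as 1 table of the whole series. Per the submitters' processing notes, Trim Galore 0.6.10, STAR 2.7.1a, featureCounts and the genome build GRCz11 were used. The annotation release, the strand setting and the handling of multimapping reads are not given in the sources used here. Per the labels' protocols, polyadenylated RNA was selected and the libraries kept strand. The table's columns carry treatment initials and clutch numbers, which were matched to the sample titles.

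The counts were tested with edgeR 4.0.16 in R 4.3.3: filterByExpr with a minimum count of 10 left 20237 of 32520 genes, libraries were scaled by TMM, and 1 quasi-likelihood fit over 12 libraries had a mean per group. Tests were two-sided with Benjamini-Hochberg adjustment over 20237 genes in each comparison. The SE is the absolute log2 fold change over the square root of the F statistic. CPM were computed directly from the counts and the TMM-scaled library totals of the 20237 tested genes. A pseudocount of 0.5 CPM was used only for the profile plot and for ratios of highest to lowest library. The fit was checked on counts simulated with each gene drawn independently, which does not cover shifts of many genes together within a library. No 2 replicates agreed within counting error.

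The clutch number pairs libraries across groups, since the labels name a shared clutch. Deviations from group means correlated at a mean of 0.012 within a clutch (18 pairs, −0.0864 to 0.103) and −0.00578 between clutches (36 pairs, −0.232 to 0.217). Alternatives were DESeq2 1.42.0, its size factors, no filter, a clutch block, only the 2 groups compared, and each library left out, 17 settings in all.

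The members, classes and gene lists were chosen with earlier results of these data known. Values in every library are given for opsins, transducin alpha subunits, crx and each other member past the threshold in at least 1 comparison, and at most 3 genes per list and comparison are named, by smallest adjusted p. Gene neighbours come from a RefSeq gene table of assembly GRCz12tu, used without coordinates.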

Additional observations from a re-analysis of the deposited data

How the results depend on the processing

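Of 56 calls of a member in a comparison, 33 held in all alternatives, and over 952 recomputed values 829 kept the call, 123 lost it and 0 changed sign. These settings reuse the same libraries, and some leave out a library of neither group compared, so they are not independent checks. For testosterone against DMSO the count of 2 members was 1 with DESeq2 size factors and 1 with only the 2 groups in the fit, and 0 to 9 when 1 library was left out. EGCG against DMSO, with 5 members, gave 15 with only the 2 groups in the fit and 1 to 8 without 1 library. EGCG against testosterone, with 2 members, gave 5 with DESeq2, 5 without the filter on low counts, 1 with only the 2 groups in the fit and 0 to 9 without 1 library. Without 1 library, calindol against DMSO, with 16 members, ranged from 10 to 25, calindol against testosterone, with 8, from 8 to 17 (7 with only the 2 groups in the fit), and EGCG against calindol, with 23, from 16 to 25. With clutch as a replicate block, the pairing the labels give, the count was 1 for testosterone against DMSO and 1 for EGCG against testosterone, and of the 56 calls 52 held. The other counts stayed within 1.5 times under the block. Over all tested genes the numbers that passed moved in these settings too. Beyond the construction of each alternative, the cause of these shifts was not tested. gngt1 and nr2e3 had 0 counts in all 12 libraries and opn1lw1 did not pass the filter on low counts, so they gave no test. Whether the 0 counts reflect low expression or the annotation and counting was not tested.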
